A study of Homo sapiens with 4 samples.

Results

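The genes described here are 32 nuclear receptor genes other than the LXR pair. They were taken by symbol from a table of 48162 genes, and every symbol matched exactly 1 row. Of the 32 genes, 19 had a mean of at least 1 FPKM (fragments per kilobase of gene, adjusted for library size) over the 4 libraries and were tested, and 13 lay below that limit. The comparison was between 2 libraries of MDA-MB-231 cells given 10 µM MGH-CP1 for 24 h and 2 libraries of the same line given vehicle. MDA-MB-231 is an established human line from a triple-negative breast cancer, grown here in DMEM with fetal bovine serum, which itself carries steroid and thyroid hormones and retinoids. MGH-CP1 is described in the series title as blocking the palmitoylation of TEAD, the DNA-binding partner of YAP and TAZ. All 4 libraries come from this 1 line. Separate cultures are not stated for the replicates, and the p-values therefore cover the spread from library to library alone, part or all of which may be technical.

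Nuclear receptors are transcription factors that pair a zinc-finger DNA-binding domain with a pocket for small lipophilic ligands, although several are orphans with no established hormone. Steroid receptors wait in HSP90 complexes and act mainly as pairs of themselves, while receptors for retinoids, thyroid hormone, vitamin D and fatty acids pair with an RXR. Bound receptors exchange corepressor complexes for coactivators. In breast tissue the family is best known through the estrogen and progesterone receptors, whose absence helps define triple-negative tumors.

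Libraries held 16960448 to 17295817 reads with MGH-CP1 and 16790645 to 18485701 with vehicle over the listed genes. Reads from the mitochondrial genome made up 1.81% and 1.54% of the MGH-CP1 libraries and 0.676% and 0.645% of the vehicle libraries. The part of this difference in the results below was not tested. Each of the mesenchymal markers VIM, CD44, MSN and CAV1 stood above 100 FPKM in every library, but they differed in direction. CAV1 had 161 and 160 FPKM with MGH-CP1 and 249 and 274 FPKM with vehicle, whereas both MGH-CP1 values were the higher ones for VIM, CD44 and MSN. Of the leukocyte markers, PTPRC and CD3E reached at most 0.0895 FPKM in any library, while CD14 had 3.13 and 2.84 FPKM with MGH-CP1 and 3.24 and 3.22 FPKM with vehicle. The endothelial markers VWF and CDH5 together reached at most 0.0286 FPKM. Of the markers taken as low in this line, CDH1 stayed under 1 FPKM in all 4 libraries. EPCAM stood at 7.91 to 9.95 FPKM and ERBB2 at 24.5 to 26.3 FPKM. Of the luminal markers, the keratin genes KRT8 and KRT18 stood at 288 to 299 and 59.4 to 78.7 FPKM, and FOXA1 reached at most 0.227 FPKM. ELF3 had 4.09 and 4.18 FPKM with MGH-CP1 and 1.34 and 0.859 FPKM with vehicle. GATA3 went the other way, at 2.5 and 3.1 FPKM with MGH-CP1 and 4.8 and 4.4 FPKM with vehicle.

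Most of these receptor mRNAs shifted little. With limma, 4 of the 19 tested genes rose (NR4A2, NR1D1, RARG and NR3C1) and 1 fell (NR2F2) at an adjusted p under 0.05. NR4A2 and NR6A1 averaged under 1 FPKM in vehicle and were tested only through their MGH-CP1 values; among the other 17 genes 3 rose and 1 fell. Over all 19 that is 21.1% higher and 5.26% lower, while over all 11790 genes tested 20.0% were higher and 25.1% lower. In either direction 26.3% of the receptors and 45.0% of all tested genes were called. The share that rose was near the background, while the share that fell, which rests on 1 gene, was below it. The median log2 fold change of FPKM + 1 was 0.12 for the 19 receptors and -0.02 for all genes, and the median absolute change was 0.14 for the receptors and 0.23 for all genes. Both MGH-CP1 values lay above both vehicle values for 12 of the 19 receptors and below for 2, against 34.7% and 39.4% of all tested genes, or 74.1% in either direction. The 12 include NR4A2 and NR6A1, tested only through their MGH-CP1 values, and both also count in the median of the receptors. In bulk RNA, fewer cells with a transcript and less of it per cell cannot be told apart. The number of receptors that rose was 2 with no filter on low values, 7 with voom on recovered reads, 1 without MGH-CP1 replicate 1 and 2 without MGH-CP1 replicate 2. It stood at 6 without vehicle replicate 1, while NR2F2 was the 1 receptor that fell under every alternative.

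**Figure D1:**
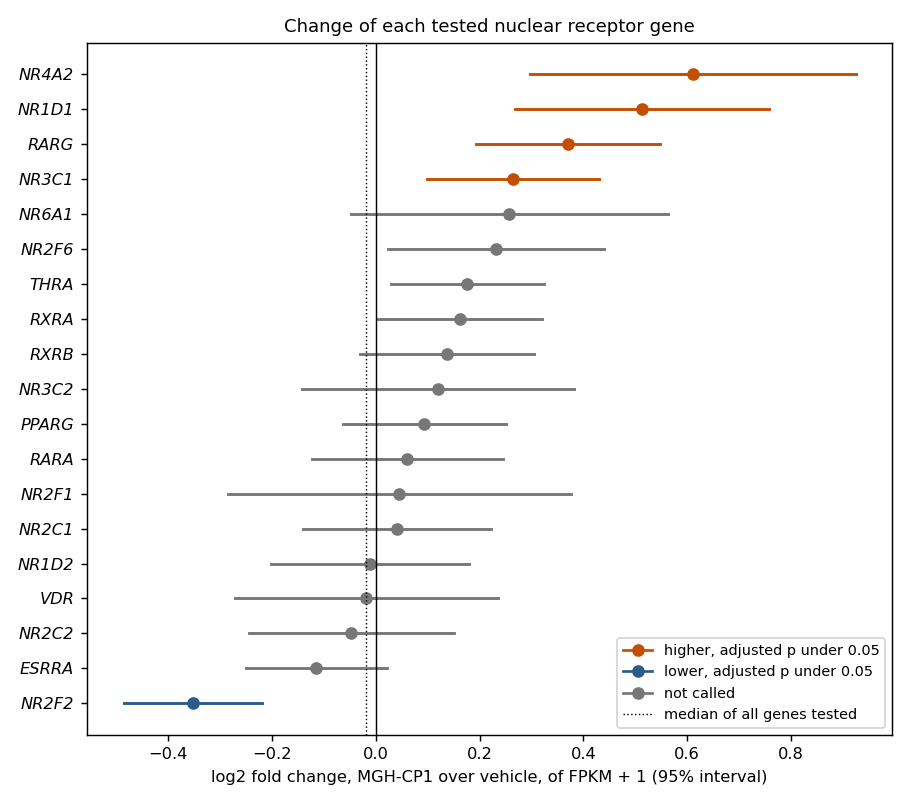
Log2 fold change of FPKM + 1, MGH-CP1 over vehicle, for the 19 nuclear receptor genes tested, as points with 95% limma intervals. NR4A2, NR1D1, RARG and NR3C1 are called higher, NR2F2 is called lower, and the other intervals belong to genes that did not pass; the dotted line marks the median of all genes tested, -0.02.

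The most abundant receptor mRNAs were those of NR2F2, RXRA, NR3C1, NR2F6, ESRRA and RXRB, each above 30 FPKM on average. NR2F2 had the highest mean over the 4 libraries and the highest value in both vehicle libraries and in MGH-CP1 replicate 1. In MGH-CP1 replicate 2 it had 40.1 FPKM, below NR3C1, NR2F6 and RXRA with 41.9, 41.6 and 41.5 FPKM. Just inside the limit for testing were NR4A2 and NR6A1, with means of 1.10 and 1.17 FPKM over the 4 libraries, and just outside it were THRB and RORA, with means of 0.648 and 0.535 FPKM.

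**Figure D2:**
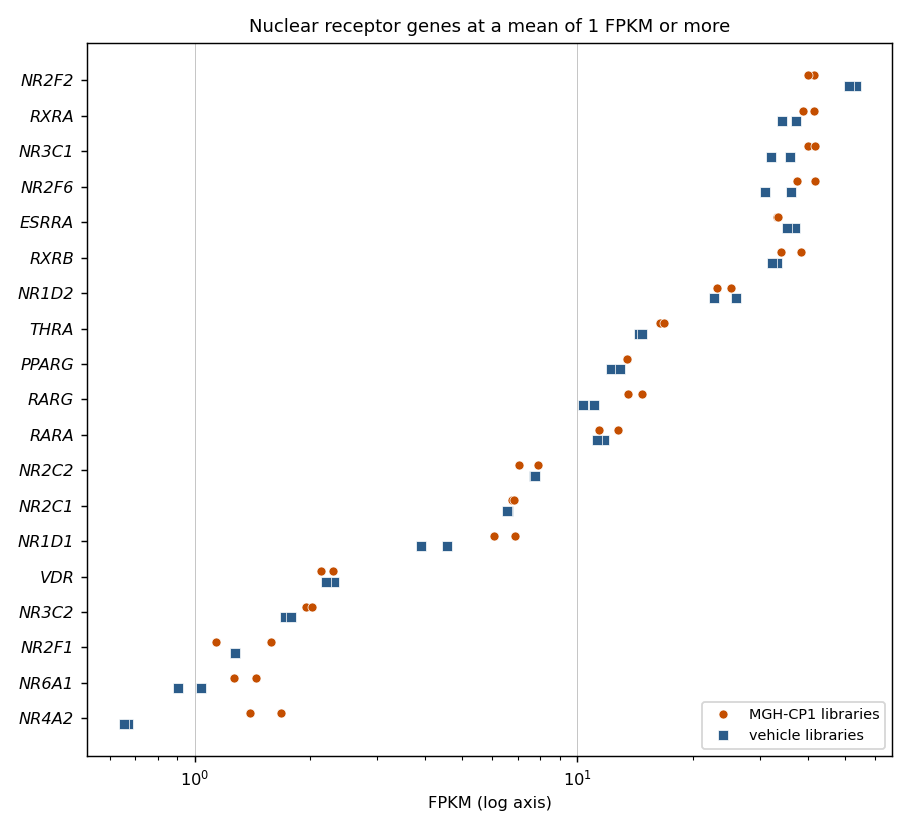
FPKM per library on a log axis for the 19 tested receptor genes, ordered by mean level, with MGH-CP1 libraries as circles and vehicle libraries as squares. NR2F2 has both MGH-CP1 values (41.5 and 40.1 FPKM) below both vehicle values (53.4 and 51.3 FPKM), and NR4A2 shows the widest gap in the other direction.

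The COUP-TF genes divided. NR2F2, on hg19 chromosome 15 from 96869167 to 96883492 on the plus strand, encodes COUP-TFII, an orphan receptor with roles in vessel, heart and mesenchymal development. It stood at 41.5 and 40.1 FPKM with MGH-CP1 and at 53.4 and 51.3 FPKM with vehicle. The groups did not overlap, and the log2 fold change was -0.35 ± 0.06 (SE; limma, adjusted p = 0.00231). NR2F6, a repressive orphan receptor also called EAR2, had 37.5 and 41.6 FPKM with MGH-CP1 and 36.2 and 31.0 FPKM with vehicle. Its MGH-CP1 values were both the higher ones, but the difference of 0.23 missed the threshold (limma, adjusted p = 0.0685, 95% interval 0.02 to 0.44). It passed among genes of at least 5 FPKM, with voom and without vehicle replicate 1 (adjusted p = 0.0498, 0.0359 and 0.00389). NR2F1, which encodes COUP-TFI, was far lower, at 1.58 and 1.14 FPKM with MGH-CP1 and 1.28 FPKM in both vehicle libraries, so its groups overlapped. It overlaps the transcript RP11-65F13.2 on the opposite strand, at a mean of 1.08 FPKM.

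Summed over NR2F1, NR2F2 and NR2F6, the COUP-TF mRNA was 80.5 and 82.9 FPKM with MGH-CP1 and 90.9 and 83.5 FPKM with vehicle. Within that sum NR2F2 held 51.5% and 48.4% with MGH-CP1, against 58.7% and 61.4% with vehicle. The balance between NR2F2 and NR2F6 thus lay closer to even in both MGH-CP1 libraries. The testicular receptors NR2C1 and NR2C2, orphan relatives that often repress transcription, moved little. NR2C1 had 6.73 and 6.84 FPKM with MGH-CP1 and 6.60 and 6.53 FPKM with vehicle, with an interval of -0.14 to 0.22 for the log2 change. NR2C2 had 7.03 and 7.91 FPKM with MGH-CP1 and 7.72 and 7.76 FPKM with vehicle, with an interval of -0.24 to 0.15. NR2C2 overlaps FGD5-AS1 on the opposite strand, at a mean of 32.6 FPKM, and MRPS25, at 5.60 FPKM. The use of strand in counting is not stated, so the value of NR2C2 is uncertain, as are those of other genes below with a partner on the opposite strand.

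Among retinoid receptors the gamma form of the retinoic acid receptor rose and the others did not pass. RARG, on chromosome 12 from 53604354 to 53626764 on the minus strand, encodes a receptor for all-trans retinoic acid that is prominent in skin. It had 14.7 and 13.5 FPKM with MGH-CP1 and 11.0 and 10.3 FPKM with vehicle. The groups did not overlap, and the log2 fold change was 0.37 ± 0.08 (limma, adjusted p = 0.00643), a call lost without MGH-CP1 replicate 1 (adjusted p = 0.0628). RARA, the most widely expressed RAR, had 12.7 and 11.4 FPKM with MGH-CP1 and 11.7 and 11.3 FPKM with vehicle, and its groups overlapped. RARB, itself a classical retinoic acid target gene, had 0.450 and 0.268 FPKM with MGH-CP1 and 0.421 and 0.521 FPKM with vehicle, resting on 14 to 27 reads a library. RARG made up 52.7% and 53.7% of the summed RAR mRNA with MGH-CP1, against 47.6% and 46.7% with vehicle. By FPKM, RARA was thus the higher with vehicle and RARG with MGH-CP1. By reads RARG was the higher with vehicle too, with 604 and 514 against 524 and 457 for RARA. The order of these genes rests on the gene lengths used and was not tested.

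The RXR genes encode the shared partners of many other receptors. RXRA had 38.9 and 41.5 FPKM with MGH-CP1 and 37.4 and 34.3 FPKM with vehicle, and the difference of 0.16 on the log2 scale missed the threshold (limma, adjusted p = 0.0865). Without vehicle replicate 1 it passed (adjusted p = 0.0193). RXRB had 38.4 and 34.0 FPKM with MGH-CP1 and 33.3 and 32.2 FPKM with vehicle (limma, adjusted p = 0.159), and it overlaps SLC39A7, at a mean of 129.9 FPKM, on the opposite strand. RXRG was listed at 0 in every library. A count of 0 allows up to 0.0852 and 0.0869 FPKM in the MGH-CP1 libraries and up to 0.0797 and 0.0878 FPKM in the vehicle libraries, by a floor of 3 reads that covers counting error only.

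**Figure D3:**
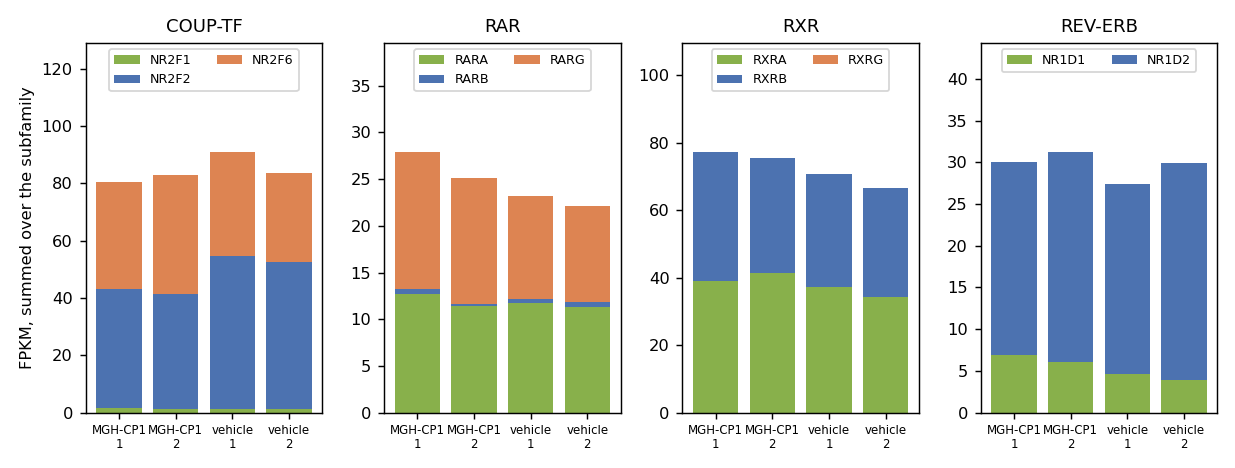
FPKM summed within 4 receptor subfamilies, 1 stacked bar per library, the MGH-CP1 libraries left of the vehicle libraries. NR2F2 takes 51.5% and 48.4% of the COUP-TF bars with MGH-CP1 against 58.7% and 61.4% with vehicle, RARG takes more of the RAR bars with MGH-CP1, and NR1D1 takes 22.9% and 19.4% of the REV-ERB bars with MGH-CP1 against 16.7% and 13.1% with vehicle.

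Of the steroid receptors, the glucocorticoid receptor was the abundant one. NR3C1, on chromosome 5 from 142657496 to 142815077 on the minus strand, encodes the receptor for cortisol. It had 40.1 and 41.9 FPKM with MGH-CP1 and 32.1 and 35.9 FPKM with vehicle. The groups did not overlap, and the rise was 0.26 ± 0.07 on the log2 scale (limma, adjusted p = 0.0197). This call was lost with no filter (adjusted p = 0.0887) and without MGH-CP1 replicate 1 or 2 (adjusted p = 0.0666 and 0.129). NR3C2, the mineralocorticoid receptor gene, had 1.96 and 2.03 FPKM with MGH-CP1 and 1.72 and 1.78 FPKM with vehicle, and it did not pass (limma, adjusted p = 0.413).

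The sex steroid receptors were at or near 0. PGR, the progesterone receptor gene, was listed at 0 in all 4 libraries, which allows at most 0.0130 FPKM in any of them. ESR1, which encodes the alpha form of the estrogen receptor, had 1 read in all, in an MGH-CP1 library. ESR2, the beta form, had 11 and 18 reads with MGH-CP1 and 7 and 11 reads with vehicle. It lies across SYNE2, at a mean of 3.95 FPKM on the opposite strand, so even these few reads are uncertain. ESRRA, an orphan relative of the estrogen receptors that works with PGC-1 coactivators on mitochondrial genes, was abundant, at 33.2 and 33.4 FPKM with MGH-CP1 and 37.0 and 35.2 FPKM with vehicle. Both MGH-CP1 values were the lower ones, but the difference of -0.11 missed the threshold (limma, adjusted p = 0.146). ESRRA overlaps TRMT112, at a mean of 83.1 FPKM, on the opposite strand.

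The clock receptors divided. NR1D1, on chromosome 17 from 38249040 to 38256978 on the minus strand, encodes REV-ERB alpha, a heme-binding repressor that links the circadian clock to metabolism. It had 6.88 and 6.06 FPKM with MGH-CP1 and 4.57 and 3.91 FPKM with vehicle. The groups did not overlap, and the log2 fold change was 0.51 ± 0.10 (limma, adjusted p = 0.00637). The call was narrowly lost with no filter (adjusted p = 0.0534) and without MGH-CP1 replicate 1 (adjusted p = 0.0503). NR1D2, which encodes the related REV-ERB beta, had 23.1 and 25.2 FPKM with MGH-CP1 and 22.8 and 26.0 FPKM with vehicle, so the groups overlapped (95% interval -0.20 to 0.18). NKIRAS1, at a mean of 6.95 FPKM, overlaps it on the opposite strand. RORA, which encodes an activator that binds the same DNA elements as the REV-ERBs, had 0.586 and 0.685 FPKM with MGH-CP1 and 0.384 and 0.483 FPKM with vehicle. It lay below the limit for testing, on 77 to 126 reads a library, with both MGH-CP1 values above both vehicle values.

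NR1D1 and the thyroid hormone receptor gene THRA lie tail to tail on opposite strands and share 1081 bases in the table's coordinates. THRA had 16.5 and 16.8 FPKM with MGH-CP1 and 14.5 and 14.7 FPKM with vehicle, and the difference of 0.18 on the log2 scale missed the threshold (limma, adjusted p = 0.0546). It passed with median-ratio scaling and with voom (adjusted p = 0.0356 and 0.0400). Without strand in the counting, reads from the shared stretch could be assigned to either gene, so the rise of NR1D1 and the value of THRA are uncertain to that extent. THRA also overlaps MED24, at a mean of 23.7 FPKM. THRB, the other thyroid hormone receptor gene, had 0.667 and 0.798 FPKM with MGH-CP1 and 0.471 and 0.655 FPKM with vehicle, on 65 to 101 reads.

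The remaining receptors for lipid ligands were not called or were near 0. VDR, the vitamin D receptor gene, had 2.30 and 2.14 FPKM with MGH-CP1 and 2.31 and 2.21 FPKM with vehicle, with overlapping groups (95% interval -0.27 to 0.23). PPARG, the fatty acid receptor that drives fat cell differentiation, had 13.5 FPKM in both MGH-CP1 libraries and 12.2 and 12.9 FPKM with vehicle. Its groups did not overlap, but the difference missed the threshold (limma, adjusted p = 0.291, interval -0.06 to 0.25). NR1H4, the bile acid receptor FXR, and NR1I2, the xenobiotic receptor PXR, had 1 read each over the 4 libraries.

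The NR4A receptors are orphan receptors induced within minutes to hours by growth factors and other stimuli, and they can act without a ligand. NR4A2, also called NURR1, on chromosome 2 from 157180944 to 157198860 on the minus strand, had 1.40 and 1.68 FPKM with MGH-CP1 and 0.670 and 0.652 FPKM with vehicle. These rested on 84 and 99 reads with MGH-CP1 and 43 and 38 reads with vehicle. The ratio of the means was 2.33, the largest among the tested receptors, and the log2 fold change of FPKM + 1, which understates low genes, was 0.61 ± 0.13 (limma, adjusted p = 0.00879). NR4A2 passed the limit for testing only through its MGH-CP1 values, so a gene at this level was tested only because it was higher there, and it was not tested without MGH-CP1 replicate 2. NR4A1 had 16 and 24 reads with MGH-CP1 and 12 and 11 with vehicle, or 0.191 and 0.293 FPKM against 0.134 and 0.135 FPKM. NR4A3 had 10 and 16 reads with MGH-CP1 and 10 and 7 with vehicle, or 0.116 and 0.189 FPKM against 0.109 and 0.0837 FPKM. For all 3 genes both MGH-CP1 values were the higher ones, but neither NR4A1 nor NR4A3 reached the limit, and neither was called in the fit with no filter (limma, adjusted p = 0.297 and 0.496).

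Among the other orphan receptors, NR6A1, the germ cell nuclear factor gene, had 1.27 and 1.45 FPKM with MGH-CP1 and 1.04 and 0.906 FPKM with vehicle. Its vehicle mean of 0.973 FPKM was below the limit for testing, which it passed through its MGH-CP1 values. The groups did not overlap, but it did not pass (limma, adjusted p = 0.148), except with voom (log2 fold change 0.48, adjusted p = 0.0266). NR5A2, which encodes LRH-1, had 2 to 8 reads a library. NR0B1, which encodes DAX1, a receptor-like repressor with no DNA-binding domain of the usual kind, had 0 to 2 reads a library.

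**Figure D4:**
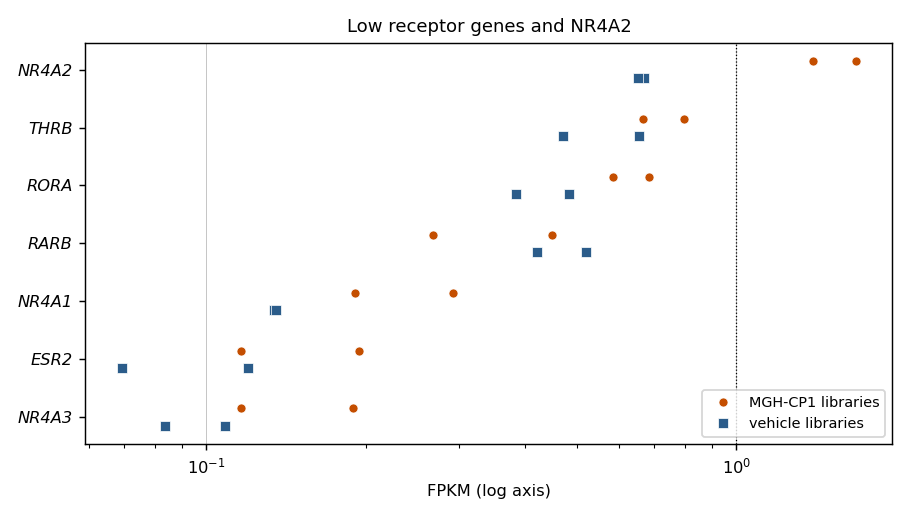
FPKM per library on a log axis for receptor genes with low levels, MGH-CP1 as circles and vehicle as squares, with the limit for testing as a dotted line at 1 FPKM. NR4A2 crosses the limit in the MGH-CP1 libraries only, while THRB, RORA, RARB, NR4A1, ESR2 and NR4A3 stay below it in all 4 libraries.

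The stretches around the annotated starts of the 3 raised genes present in the RefSeq promoter table and of NR4A3 are shown for the motifs searched in them, TEAD's among them. The table gives 250 bases before and 50 after each start on GRCh38.p14, another build than the hg19 of the expression table. It holds 29 of the 32 receptor genes, without NR4A2, NR2F6 and VDR. The window of NR2F2 is not shown, since 233 of its 300 bases are coding in GENCODE 29 and its start lies 6627 bases from the first annotated one. The start used for NR3C1, a gene with several promoters, lies 31030 bases from its first annotated one. Searched on both strands, the TEAD motif GGAATG was found in 1 of the 29 windows, that of NR4A3 (3.45%), and in 14.0% of all 35116 windows of this length. The nuclear receptor half-site AGGTCA was found in 6 of the 29 windows (20.7%), among them RARA and PPARG, and in 13.8% of all windows. The E-box CACGTG occurred in 3, NR2F2, PGR and NR2C1 (10.3%, against 7.26% of all windows). The NR4A element AAAGGTCA, which contains the half-site, occurred in 1, PPARG (3.45%, against 1.22%). These counts keep 4 windows that hold coding bases, NR2F2 and PGR with an E-box and NR1H4 and NR0B1 with a half-site. The cAMP response element TGACGTCA occurred in 1, NR6A1 (3.45%, against 1.85%). No searched motif was found in the windows of NR1D1, RARG and NR3C1, which says only that these letters are not in these stretches. Capitals mark the TEAD motif, which NR4A3 carries in its reverse form starting 73 bases before the start.
NR1D1, chr17:40100540-40100839, minus strand: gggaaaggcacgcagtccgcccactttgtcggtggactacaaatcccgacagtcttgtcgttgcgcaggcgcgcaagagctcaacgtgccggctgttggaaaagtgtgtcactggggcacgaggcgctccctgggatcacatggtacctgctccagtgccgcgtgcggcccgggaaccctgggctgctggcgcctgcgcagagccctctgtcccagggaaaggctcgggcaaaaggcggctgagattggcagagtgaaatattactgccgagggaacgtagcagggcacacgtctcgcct
RARG, chr12:53232160-53232459, minus strand: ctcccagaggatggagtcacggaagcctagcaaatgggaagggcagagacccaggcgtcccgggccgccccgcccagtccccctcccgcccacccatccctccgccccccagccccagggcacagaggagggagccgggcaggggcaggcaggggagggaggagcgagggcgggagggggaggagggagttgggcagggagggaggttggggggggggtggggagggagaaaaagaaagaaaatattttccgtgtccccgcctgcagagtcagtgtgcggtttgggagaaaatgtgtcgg
NR3C1, chr5:143404433-143404732, minus strand: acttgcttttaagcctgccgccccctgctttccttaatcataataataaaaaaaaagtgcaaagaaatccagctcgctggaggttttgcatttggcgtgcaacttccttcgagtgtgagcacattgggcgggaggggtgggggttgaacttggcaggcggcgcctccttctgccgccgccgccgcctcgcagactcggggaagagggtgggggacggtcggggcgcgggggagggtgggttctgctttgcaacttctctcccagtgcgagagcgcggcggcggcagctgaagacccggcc
NR4A3, chr9:99821635-99821934, plus strand: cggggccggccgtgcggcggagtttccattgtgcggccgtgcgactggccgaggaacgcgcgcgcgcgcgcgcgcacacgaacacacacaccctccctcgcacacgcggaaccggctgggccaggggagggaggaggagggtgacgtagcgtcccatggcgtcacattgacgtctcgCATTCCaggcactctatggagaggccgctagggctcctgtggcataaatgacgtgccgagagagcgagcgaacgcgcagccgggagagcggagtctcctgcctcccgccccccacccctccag

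The nuclear receptor genes outside the 32 were looked at for comparison. Of 16 such genes 4 were tested, and 3 of these were called higher, against 20.0% of all tested genes. The LXR genes NR1H2 and NR1H3 and the fatty acid receptor gene PPARA rose, by 0.36, 0.60 and 0.70 on the log2 scale (limma, adjusted p = 0.00539, 0.00198 and 0.00165). PPARA had 10.7 and 11.6 FPKM with MGH-CP1 and 5.80 and 7.16 FPKM with vehicle. PPARD, the third PPAR gene, had 31.7 and 33.7 FPKM with MGH-CP1 and 33.6 and 33.1 FPKM with vehicle, and it did not pass (limma, adjusted p = 0.721). The value of NR1H3 is uncertain because ACP2, at a mean of 17.4 FPKM, overlaps it on the opposite strand.

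Among the genes of this comparison set that lay below the limit for testing, NR1I3, which encodes a xenobiotic receptor of the liver, had 0.746 and 0.520 FPKM with MGH-CP1 and 0.404 and 0.364 FPKM with vehicle. It rested on 19 and 13 reads with MGH-CP1 and 11 and 9 reads with vehicle, and the groups did not overlap. NR2E1, an orphan receptor gene of neural stem cells, and ESRRB, a relative of ESRRA, were listed at 0 in all 4 libraries.

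Chaperones that hold steroid receptors ready for hormone mostly fell. Of 13 tested genes 11 fell and 1 rose, with a median log2 fold change of -0.37. Over all tested genes 25.1% fell and 20.0% rose, with a median of -0.02. FKBP5, a co-chaperone that lowers the affinity of the glucocorticoid receptor for hormone, had 7.06 and 6.81 FPKM with MGH-CP1 and 14.2 and 14.6 FPKM with vehicle, or -0.96 ± 0.07 on the log2 scale (limma, adjusted p = 8.3e-05). FKBP4, its counterpart that favors receptor activity, had 40.6 and 41.3 FPKM with MGH-CP1 and 62.7 and 55.9 FPKM with vehicle (-0.52 ± 0.07). The constitutive chaperone HSPA8 fell by 0.67 on the same scale. BAG1, the 1 that rose, was named after its values were seen.

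Genes known as glucocorticoid receptor targets moved in the other direction for the most part. Of 14 tested genes 8 rose and 1, FKBP5, fell, with a median of 0.30. Among all tested genes 20.0% rose and 25.1% fell. TSC22D3, which encodes the anti-inflammatory protein GILZ, had 7.83 and 7.31 FPKM with MGH-CP1 and 2.79 and 3.10 FPKM with vehicle, or 1.12 ± 0.09 on the log2 scale (limma, adjusted p = 0.000128). KLF9, a zinc-finger factor gene also induced by thyroid hormone, had 4.44 and 3.95 FPKM with MGH-CP1 and 1.85 and 1.87 FPKM with vehicle (0.86 ± 0.10). FKBP5, TSC22D3 and KLF9, all textbook glucocorticoid targets, thus changed in different directions. NR3C1 itself rose by 0.26, less than the changes of FKBP5, TSC22D3 and KLF9, which were named for the size of their change.

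In the circuit of clock genes around the REV-ERBs and RORs, 7 of 13 tested genes rose and 1 fell, with a median of 0.28. The shares over all tested genes were 20.0% higher and 25.1% lower. CRY1, a core clock repressor whose gene the REV-ERBs repress, had 3.80 and 3.78 FPKM with MGH-CP1 and 7.28 and 7.67 FPKM with vehicle (log2 fold change -0.82 ± 0.08; limma, adjusted p = 0.000306). PER1, a clock repressor gene that glucocorticoids also induce, had 5.12 and 4.56 FPKM with MGH-CP1 and 2.53 and 2.25 FPKM with vehicle (0.78 ± 0.10). BHLHE40, another clock repressor gene, had 39.7 and 40.5 FPKM with MGH-CP1 and 23.8 and 23.9 FPKM with vehicle (0.72 ± 0.06). ARNTL, NPAS2 and CLOCK, further genes tied to REV-ERB and ROR control, did not pass and were named after their values were seen. NFIL3, also a gene of this circuit and named after its values were seen, rose by 0.39 ± 0.08 (limma, adjusted p = 0.00546). It had 14.36 and 14.45 FPKM with MGH-CP1 and 10.22 and 11.40 FPKM with vehicle. The count of 7 was 4 without either MGH-CP1 library, 4 with no filter and 2 among genes of at least 5 FPKM, where fewer of them were tested.

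**Figure D5:**
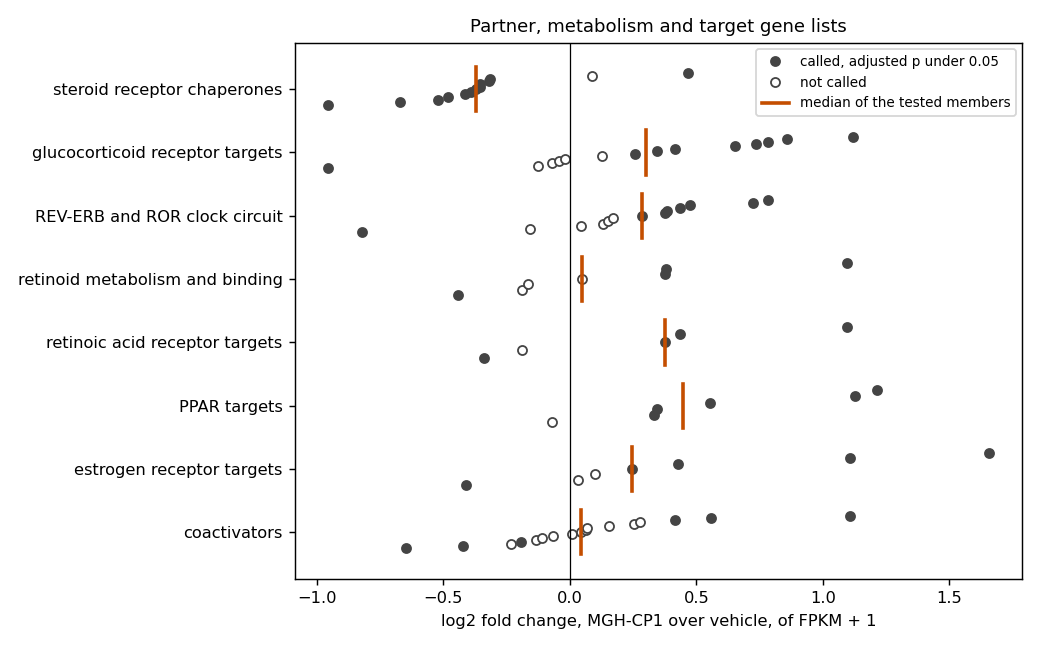
Log2 fold change of FPKM + 1, MGH-CP1 over vehicle, for tested genes of 8 lists tied to nuclear receptor action; filled points passed the test, open points did not, and the bar is the list's median. The chaperones lie mostly left of 0 with a median of -0.37, and the PPAR targets mostly right of it with a median of 0.45.

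Among tested retinoid genes the largest change was in DHRS3, which reduces retinaldehyde back to retinol and is itself induced by retinoic acid. It had 68.9 and 64.1 FPKM with MGH-CP1 and 30.1 and 31.1 FPKM with vehicle, or 1.10 ± 0.06 on the log2 scale (limma, adjusted p = 3.4e-05). Of 7 tested genes of retinoid metabolism and binding 3 rose and 1 fell, with a median of 0.05. Among all tested genes 20.0% rose and 25.1% fell. RDH10, which makes retinaldehyde, and CRABP2, which carries retinoic acid to the nucleus, rose by 0.38 and 0.37, and FABP5, a fatty acid carrier that can bind retinoic acid, fell by 0.44. These 3 calls held in 6 of 10, 8 of 11 and 5 of 10 alternatives, and RDH10 overlaps the ribosomal protein gene RPL7, at a mean of 357 FPKM, on the opposite strand. Of 5 tested retinoic acid receptor targets 3 rose (DHRS3, RARRES3 and CRABP2) and 1 fell, TGM2, named after its values were seen. RARRES3 rose by 0.44 ± 0.06. DHRS3 and CRABP2 are counted in both lists. Below the limit for testing, and named after their values were seen, DHRS9, a retinol dehydrogenase gene, had 43 and 28 reads with MGH-CP1 and 7 and 5 reads with vehicle, and STRA6, which takes up retinol, had 57 and 28 reads with MGH-CP1 and 11 and 13 reads with vehicle. The groups of both genes did not overlap. Without MGH-CP1 replicate 1, 1 gene of retinoid metabolism and 2 of the targets rose.

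Of 6 tested PPAR targets 5 rose, with a median of 0.45, while 20.0% of all tested genes rose. PDK4, whose product limits the entry of pyruvate into the citric acid cycle, rose by 1.21 ± 0.08 on the log2 scale (limma, adjusted p = 5.3e-05). PLIN2, a lipid droplet coat protein gene, had 207 and 195 FPKM with MGH-CP1 and 95.7 and 87.4 FPKM with vehicle (1.13 ± 0.07), so its groups did not overlap. PPARG and PPARD, at 13.0 and 33.0 FPKM on average, did not pass, and PPARA rose. The count of 5 was 3 without MGH-CP1 replicate 1.

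Estrogen receptor targets were measured beside an ESR1 gene with 1 read in all. Of 7 tested, 4 rose and 1 fell, with a median of 0.25, while 20.0% of all tested genes rose and 25.1% fell. AGR2, a secretory pathway protein of luminal cells, had 14.5 and 12.3 FPKM with MGH-CP1 and 2.83 and 4.39 FPKM with vehicle (log2 fold change 1.66 ± 0.16). CA12 rose by 1.11 and TFF1 by 0.43, and the TFF1 call held in 8 of 11 alternatives. CCND1, the 1 that fell, was named after its values were seen, and 2 rose in the fit with no filter.

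Coactivator genes were called in both directions. Of 17 tested coactivators 3 rose and 3 fell, with a median of 0.05. Over all tested genes 20.0% rose and 25.1% fell, so neither count stood above the background. PNRC1, a proline-rich coactivator, had 36.4 and 40.0 FPKM with MGH-CP1 and 17.1 and 17.2 FPKM with vehicle (1.11 ± 0.07). NCOA3, a steroid receptor coactivator often amplified in breast cancer, rose by 0.56 ± 0.08, and PPRC1, a PGC-1 relative, fell by 0.65. The count that rose was 6 with voom and without vehicle replicate 2, 5 with median-ratio scaling and the replicate block, while the count that fell was 2 when either MGH-CP1 library was left out and 5 without vehicle replicate 1. The 8 tested corepressors had a median of 0.07.

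The remaining lists had few tested genes, and their counts stand beside 20.0% higher and 25.1% lower over all tested genes. Of 6 tested genes of steroid, thyroid hormone and vitamin D metabolism HSD17B4 rose by 0.41, while SRD5A1 and STS fell by 0.30 and 0.28, these 2 calls holding in 9 and 8 of 11 alternatives. Of 2 tested vitamin D receptor targets ATP2B1, a plasma membrane calcium pump gene, rose by 0.46 ± 0.07, and CD14 did not pass. CYP24A1, which breaks down vitamin D and is its classical target, lay below the limit and was named after its values were seen. It had 1 and 2 reads with MGH-CP1 and 17 and 25 reads with vehicle, and 1 vitamin D target was called lower in the fit with no filter. KLF9 was the 1 tested thyroid hormone target, and SLC51A, a bile acid exporter subunit gene, the 1 tested FXR or PXR target. SLC51A was higher by 0.44 (limma, adjusted p = 0.0314), held in 6 of 10 alternatives and overlaps PCYT1A, at a mean of 20.5 FPKM, on the opposite strand.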

How the data were processed

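Poly(A)-selected RNA of 4 MDA-MB-231 libraries was sequenced. Per the submitters' processing notes, CASAVA 1.8 made the base calls and STAR aligned reads to hg19. Sources used here do not give the counter, the annotation release or the use of strand. The authors deposited FPKM values for 48162 genes with coordinates and gene lengths. FPKM times gene length gave whole multiples of 1 step per library (100% of values within 0.001), taken as reads.

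MGH-CP1 was compared with vehicle, 2 libraries each, with limma 3.58.1 in R 4.3.3 (two-sided, mean-variance trend) on log2(FPKM + 1), over the 11790 genes averaging 1 FPKM or more. P-values were Benjamini-Hochberg adjusted over these genes, and genes were called under 0.05. The code was tested on simulated data. Tables and plots used Python 3.11.15, pandas 2.3.3, numpy 2.4.6 and matplotlib 3.10.9.

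The 32 genes and the 14 lists of related genes (172 of 173 entries matched, 15 genes in more than 1 list; CIART not analysed here) were chosen with earlier results of these data known. All 32 receptors and the other receptors were to be named, with at most 3 called genes per list by size of change. Some items under this rule are not reported here. The list roles are background knowledge, not measurements of receptor activity. Promoter windows came from RefSeq on GRCh38.p14. The 11 alternatives were other pseudocounts, filters and scaling, voom, a replicate block and leaving out each library.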

Additional observations from a re-analysis of the deposited data

How the results depend on the processing

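All 11 alternatives ran. The number of genes called higher was 2355, and 1568 with no filter and 1450 to 2554 when 1 library was left out. The number of receptors called higher was 4, and 2 with no filter, 7 with voom and 1 to 6 when 1 library was left out. Their median log2 fold change of 0.12 was 0.0747 with no filter, which adds genes near 0, and 0.0924 to 0.126 when 1 library was left out. Signs turned for 6 receptor genes without a call. NR1D2 was at 0.0118 with median-ratio scaling. When 1 library was left out, the log2 fold change ranged from -0.0145 to 0.136 for RARA, -0.0554 to 0.0183 for VDR, -0.103 to 0.0794 for NR1D2, -0.0907 to 0.181 for NR2F1, -0.123 to 0.0285 for NR2C2 and -0.0706 to 0.0131 for PPARD. The cause was not tested. Of 550 recomputed values of single genes, 34 lost a call, 7 gained one and 9 changed sign, and no called gene changed sign. The labels do not say whether same-numbered libraries were handled together. Their deviations correlated at 0.0502 across genes, which cannot settle that. The replicate block gave 2453 higher and 3036 lower genes, with the same 4 and 1 receptors called. Depth limits the 13 receptors under 1 FPKM, and 2 libraries per group limit every interval.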
